A study of Mus musculus with 3 samples.

Results

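Respiratory complexes II to V are the mitochondrial electron transport chain other than complex I, together with ATP synthase. The genes described here are 38 of the 32285 genes in the count matrices: 4 of complex II (succinate dehydrogenase), 9 of complex III (cytochrome c reductase), Cycs (cytochrome c), 10 of complex IV (cytochrome c oxidase) and 14 of complex V (ATP synthase). They were chosen by symbol as nuclear-encoded subunits, with earlier results of these data known, and all 38 were found. Nuclei from frozen mouse hippocampus were profiled in 3 libraries, and each library pooled the bilateral hippocampi of 4 mice: untreated controls, mice given doxorubicin (a chemotherapy drug that poisons topoisomerase II), and mice given doxorubicin with ACY-1083 (an inhibitor of the cytoplasmic deacetylase HDAC6). The study's title names HDAC6 inhibition and cognitive impairment after doxorubicin. The labels used here give no strain, sex, age, dose or time, and no library of ACY-1083 alone was analysed here. Each group was 1 library, so groups could not be tested against each other, no p-value is given, and each value describes that library. Intervals are exact 95% intervals and cover counting error only, not the spread between mice.

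Complex II passes electrons from succinate to ubiquinone, an entry parallel to complex I, and complex III takes them from ubiquinol to cytochrome c. Complex IV hands them to oxygen, and complex V uses the proton gradient that the chain builds to make ATP, which neurons spend largely on ion pumping. Complexes III, IV and V mix nuclear-encoded subunits with subunits encoded by mitochondrial DNA, whereas every subunit of complex II is encoded in the nucleus. Their messenger RNAs are translated outside the nucleus, so counts in isolated nuclei cover nuclear transcripts and any cytoplasmic RNA carried along.

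The matrices held 10909, 12221 and 12192 barcodes with 19175447, 21458785 and 62151258 unique molecular identifiers (UMIs, counted molecules) (control first, then doxorubicin, then doxorubicin plus ACY-1083, an order kept throughout). After filtering, 10455, 11647 and 11846 nuclei were kept, with median UMIs of 1472, 1471 and 3849.5. The library with ACY-1083 stood apart. Its matrix carried another Cell Ranger version in its header than the other two, Malat1, a nuclear noncoding RNA, took 7.66% of its UMIs against 21.7% and 23.3%, and most of its classes lay in clusters of their own. Pairs of libraries shared 42, 29 and 46 barcodes of 10909 or more. Clusters were named from marker genes, and 11 classes with at least 100 nuclei in every library were compared. They were 5 neuron classes (dentate gyrus granule, CA1, CA2/CA3, subicular or cortical excitatory, and GABAergic) and 6 other classes (oligodendrocytes, oligodendrocyte precursor cells, astrocytes, microglia, fibroblast-like cells and choroid plexus epithelium). The subicular or cortical class held 1460, 1315 and 455 nuclei. A cluster of 601 nuclei of the ACY-1083 library stayed unnamed, although Tshz2 and Vwc2l were among its leading genes, as in that class in control. The subicular or cortical class may therefore hold different neurons in the ACY-1083 library. Levels are CPM, the UMIs of a gene per 1000000 UMIs of the class in a library. Because the chemistry counts 3′ ends, no order of level between genes is drawn.

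In every library the summed level of the 38 genes was lowest in CA2/CA3 pyramidal neurons and highest in choroid plexus epithelium. Control CA2/CA3 neurons had 2294 CPM (2225 to 2365), against 3045 in CA1 neurons, 3431 in subicular or cortical neurons, 3526 in GABAergic neurons and 3838 in granule neurons. Control microglia had 3353 CPM, oligodendrocytes 4579, oligodendrocyte precursor cells 4903, fibroblast-like cells 5986, astrocytes 6607 and choroid plexus epithelium 6695 (6261 to 7153). Neurons and the other classes overlapped in control, because microglia lay below GABAergic, subicular or cortical and granule neurons. The intervals of 4 pairs of neighbours overlapped (microglia with subicular or cortical neurons, the latter with GABAergic neurons, oligodendrocytes with their precursors, and astrocytes with choroid plexus epithelium), so their order is not resolved beyond counting error. The mean log2 level of the 5 neuron classes was 0.71 below that of the 6 other classes in control, 0.81 below in doxorubicin and 0.97 below in doxorubicin plus ACY-1083, and only in the last did the ranges not overlap. Counts of that last library follow intron length, as described below, so treatment and processing cannot be told apart in its gap.

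CPM was lowest in the class with the most UMIs per nucleus. Control CA2/CA3 neurons had a median of 3208 UMIs per nucleus and oligodendrocytes 698.5, while the mean number of UMIs of the 38 genes per nucleus was 7.56 and 5.04. Over the 11 control classes that number ran from 4.502 in oligodendrocyte precursor cells to 8.72 in choroid plexus epithelium, a narrower range than that of CPM, and CA2/CA3 neurons were second highest rather than lowest. The transcript Ttr, a choroid plexus marker, was also found in every class, at 574 CPM in control CA2/CA3 neurons and 2415 CPM in control astrocytes. The part of depth per nucleus and of RNA from outside the nucleus in the order of the classes was not tested.

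**Figure D1:**
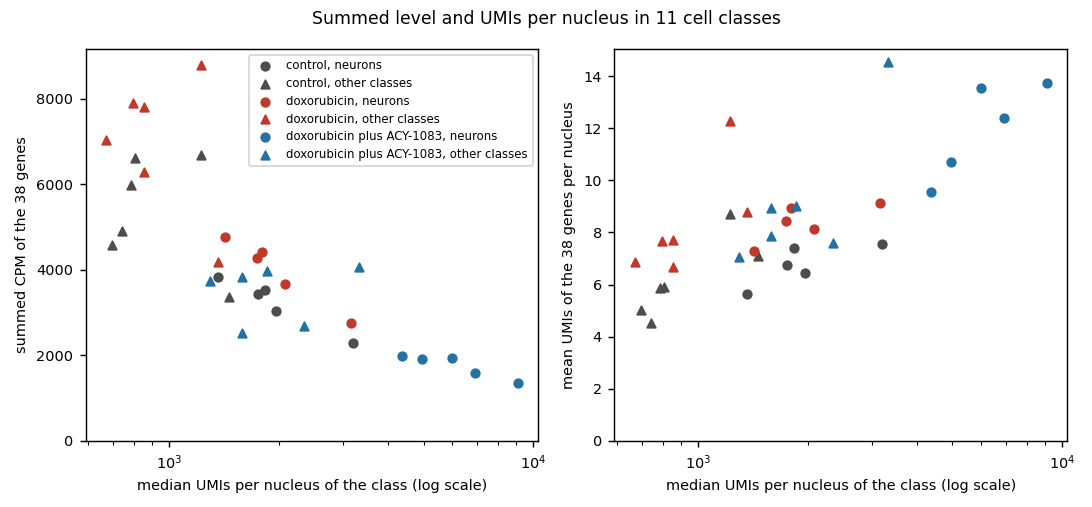
Summed CPM of the 38 genes (left, vertical axis) and their mean UMIs per nucleus (right, vertical axis) against the median UMIs per nucleus on a log axis; each point is 1 cell class in 1 library, circles are neurons and triangles other classes. CPM tended to be lower in classes with more UMIs per nucleus, whereas the mean UMIs of these genes per nucleus did not, with 7.56 in control CA2/CA3 neurons at a median depth of 3208.

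Complexes III, IV and V followed closely similar orders of classes in every library, and complex II less so, mainly in control. Over the 11 control classes, the Pearson correlation of log2 summed CPM was 0.97 for complexes III and IV, 0.97 for III and V and 0.99 for IV and V, against 0.56, 0.60 and 0.56 for complex II with III, IV and V. In the doxorubicin library complex II correlated at 0.94, 0.91 and 0.91 with them, and in doxorubicin plus ACY-1083 at 0.90, 0.90 and 0.92. These are descriptions over 11 classes that share libraries and scaling, and complex II rests on few UMIs in small classes (29 in control choroid plexus epithelium). Complex II was 0.15 lower on the log2 scale in control neurons than in other classes, where complex IV was 0.85 lower. In doxorubicin complex II was 0.46 and complex IV 0.90 lower, and in doxorubicin plus ACY-1083 0.53 and 1.10 lower. Cox4i1, the largest nuclear-encoded complex IV subunit, ranged in control from 123 CPM in CA2/CA3 neurons to 585 CPM in choroid plexus epithelium. Atp5e, the epsilon subunit of the ATP synthase central stalk, ranged from 18.1 to 118 CPM, the latter in fibroblast-like cells. Uqcrh, the hinge protein of complex III, ranged from 40.0 CPM in CA2/CA3 neurons to 182 CPM in choroid plexus epithelium. Each of the 3 was lowest in CA2/CA3 neurons in all 3 libraries, and in control each had the largest spread of log2 CPM over classes within its complex. Sdhd had the largest spread within complex II, but its lowest class, fibroblast-like cells, held 1 UMI.

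The doxorubicin library held more transcripts of complexes III, IV and V than control in every class, and of complex II in most. Over all kept nuclei the 38 genes summed to 3698 CPM (3670 to 3726, 67146 UMIs) in control and 4676 CPM (4647 to 4706, 94749 UMIs) in doxorubicin, a ratio of 1.26 (1.252 to 1.28). By complex the ratio was 1.32 (1.30 to 1.34) for complex IV, 1.26 (1.23 to 1.29) for complex III, 1.24 (1.22 to 1.26) for complex V and 1.10 (1.05 to 1.15) for complex II. The interval of complex II lay below those of the other 3 complexes. The summed level was higher in doxorubicin, with an interval above 1, in all 11 classes, from 1.18-fold (1.14 to 1.22) in astrocytes to 1.54-fold (1.48 to 1.60) in oligodendrocytes. Oligodendrocytes had 4579 CPM in control and 7030 CPM in doxorubicin, and theirs was the only class interval that lay wholly above those of the 5 neuron classes. As a median over classes the log2 ratio was 0.36 for complex IV, 0.35 for complex III, 0.29 for complex V, 0.17 for cytochrome c and 0.13 for complex II. Complexes IV and V had intervals above 1 in 11 of 11 classes, complex III in 10, and complex II and cytochrome c in 3 each. The remaining class of complex III was oligodendrocyte precursor cells, at 1.08-fold (0.906 to 1.30).

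**Figure D2:**
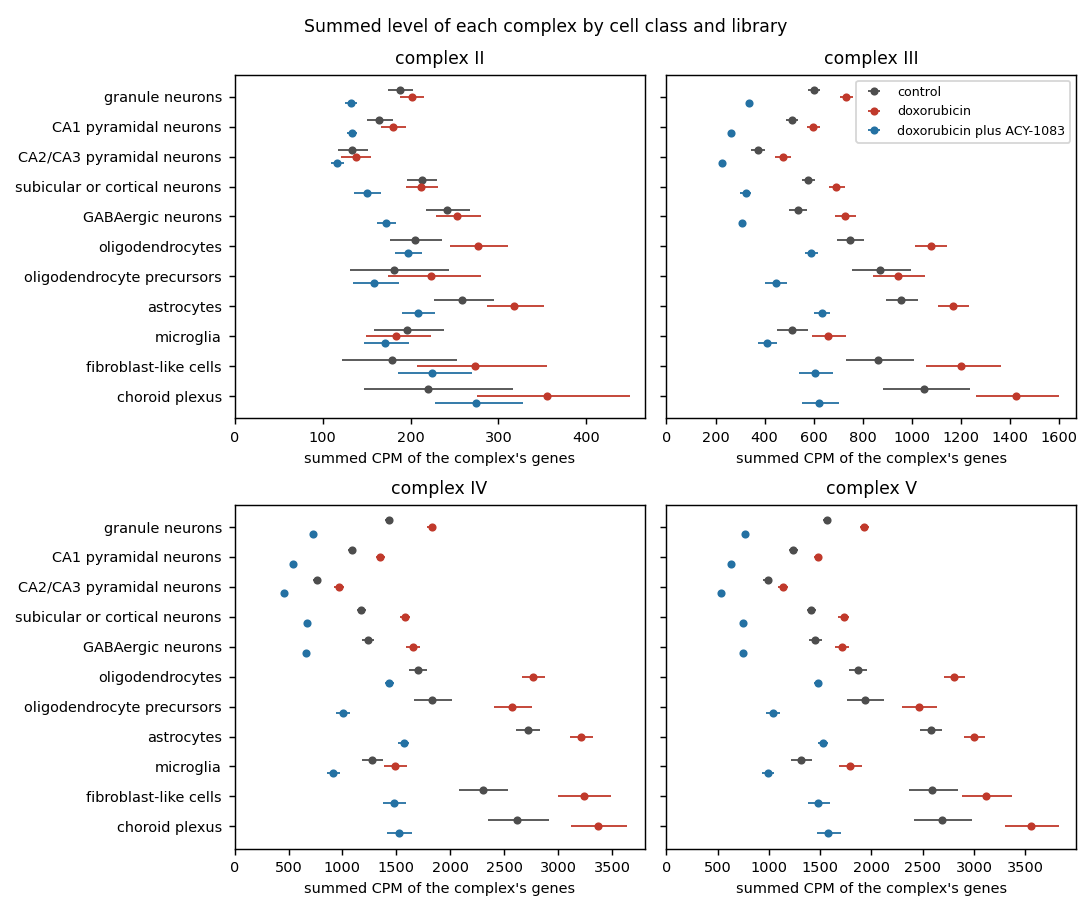
Summed CPM of the genes of complexes II, III, IV and V (horizontal axes) in 11 cell classes and 3 libraries; points are library values and bars exact 95% Poisson intervals, which cover counting error only. Complexes III, IV and V lie higher in doxorubicin than in control in every class, while the complex II bars of control and doxorubicin overlap in most classes; the doxorubicin plus ACY-1083 points are lower for a library whose counts follow intron length.

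Of the 38 genes, 22 were at least 25% higher in doxorubicin over all kept nuclei, a size that 2.92% of 10220 genes with a mean of at least 10 CPM reached, and 0 were at least 20% lower, where 2.12% of genes lay. The interval lay above 1 for 33 of the 38, against 10.2% of all genes tested, and below 1 for none. The median log2 ratio was 0.35 over the 38 genes and -0.05 over all genes tested.

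The same counts within classes were above the background in each neuron class and closer to it in the small classes, where counting error alone puts many genes past this fold. At least 25% higher were 19 of 38 genes in granule neurons (background 5.89%), 13 of 38 in CA1 neurons (5.82%), 16 of 37 in CA2/CA3 neurons (12.3%), 20 of 38 in subicular or cortical neurons (8.17%) and 21 of 38 in GABAergic neurons (13.7%). None of the genes was at least 20% lower in those 5 classes, where 10.7%, 12.6%, 14.8%, 11.8% and 13.8% of all genes were. Oligodendrocytes had 31 of 38 higher (19.7%) and astrocytes 16 of 38 (16.1%), with none lower (22.3% and 21.3%). Oligodendrocyte precursor cells had 18 higher and 2 lower (26.6% and 32.1%), and microglia 20 higher and 1 lower (22.1% and 26.3%). Fibroblast-like cells had 22 higher and 1 lower (31.8% and 32.1%), and choroid plexus epithelium 23 higher and 2 lower (30.8% and 36.8%). In all, 219 of 417 pairs of gene and class were higher and 6 were lower. Of those 6, 4 were complex II genes in classes of few nuclei: Sdhc in oligodendrocyte precursor cells and fibroblast-like cells, Sdhd in microglia and Sdhb in choroid plexus epithelium.

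**Figure D3:**
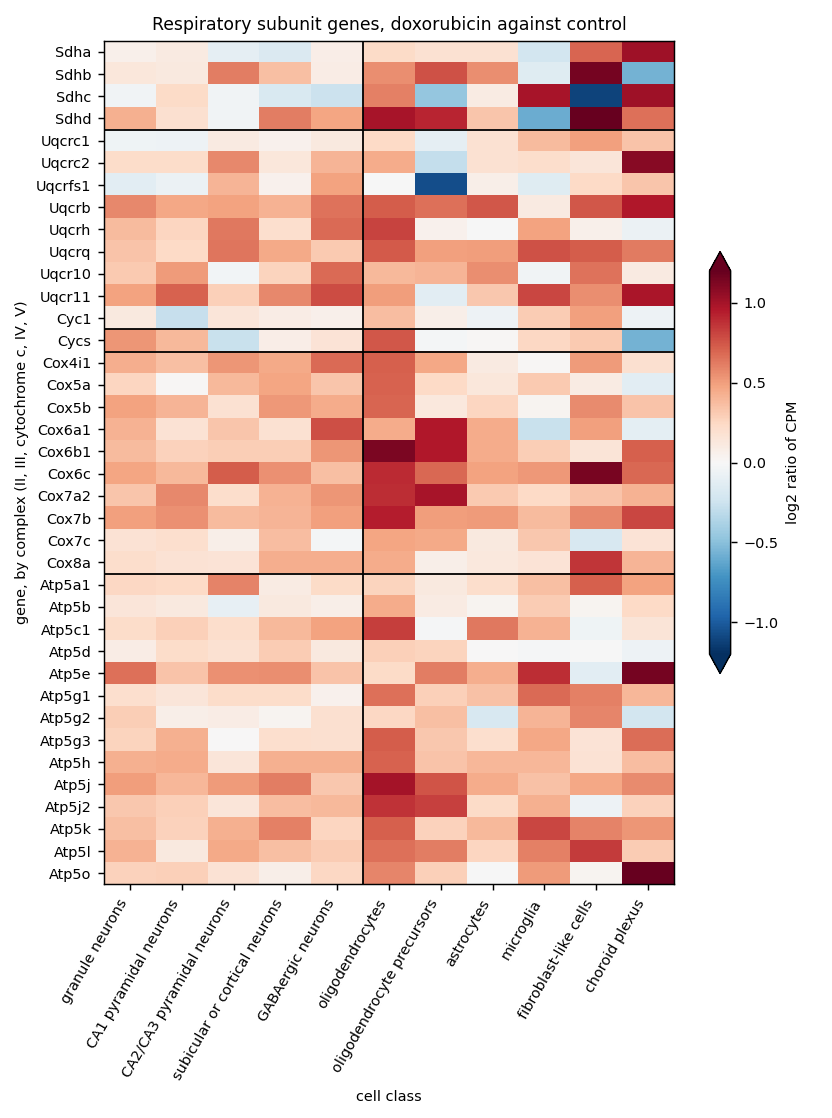
Log2 ratio of CPM, doxorubicin against control (colour), for the 38 genes (rows, with lines between complex II, complex III, cytochrome c, complex IV and complex V) in 11 cell classes (columns, with a line between neurons and other classes); colours are capped at 1.2 in either direction. Most cells of complexes III to V are red, 219 of 417 pairs are at least 25% higher, and the 6 lower pairs lie in 4 of the small classes.

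In complex II the ratios of Sdhb and Sdhd were higher than those of Sdha and Sdhc, but not all of their intervals were apart. The intervals of the membrane anchors Sdhc and Sdhd overlapped, so the anchors are not told apart by this ratio. Sdha, which oxidises succinate, had 118, 123 and 78.4 CPM over all kept nuclei of the 3 libraries, a doxorubicin to control ratio of 1.04 (0.984 to 1.11). Sdhb, the iron-sulfur subunit, had 40.3, 49.996 and 37.4 CPM and a ratio of 1.24 (1.13 to 1.37). The anchors were Sdhc, at 21.1, 21.96 and 22.3 CPM with a ratio of 1.04 (0.904 to 1.19), and Sdhd, at 13.6, 17.8 and 9.54 CPM with a ratio of 1.31 (1.11 to 1.55). Thus the intervals of Sdhb and Sdhd lay above 1, and those of Sdha and Sdhc included 1. The interval of Sdhb lay above that of Sdha. The interval of Sdhc overlapped that of Sdhb, and those of Sdha and Sdhd met at 1.11. A split of complex II into these pairs is therefore not resolved beyond counting error. By class, Sdhd was above 1 in 9 of 10 classes with enough counts (median log2 ratio 0.54) but with an interval above 1 in 2, and Sdhc was above 1 in 5 of 11 (median -0.04). In subicular or cortical neurons Sdha had 141 CPM in control and 125 in doxorubicin, a ratio of 0.888 (0.765 to 1.03), and in microglia 115 and 98.3 CPM, a ratio of 0.856 (0.579 to 1.26), neither beyond counting error.

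In complex III the small accessory subunits were higher in doxorubicin over all kept nuclei, while the redox-carrying and core subunits differed less. Uqcrb, a small subunit that binds near the ubiquinone site, had 62.7, 93.6 and 35.0 CPM over all kept nuclei in the same library order, a doxorubicin to control ratio of 1.49 (1.39 to 1.61). Uqcr11 had 57.9, 85.5 and 29.5 CPM and a ratio of 1.48 (1.37 to 1.60). Uqcrq had 80.6, 109.7 and 46.9 CPM and a ratio of 1.36 (1.27 to 1.45). All 3 are supernumerary subunits without a redox centre, and each of the 11 classes had a ratio above 1 for Uqcrb and Uqcrq, and 10 for Uqcr11. In CA1 neurons Uqcr11 had 40.6 CPM in control and 66.3 in doxorubicin (1.64-fold, 1.31 to 2.05), and in astrocytes Uqcrb had 93.8 and 157 CPM (1.68-fold, 1.29 to 2.20). Uqcrh and Uqcr10 had ratios of 1.32 and 1.34 over all kept nuclei. By class the divide was less even. The median log2 ratio over classes was 0.25 for Uqcrh and 0.39 for Uqcr10, beside 0.22 for the core gene Uqcrc2. In astrocytes Uqcrh had 179.7 CPM in both control and doxorubicin.

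The other complex III genes encode the proteins that carry electrons or form the matrix-facing core. Uqcrfs1, the Rieske iron-sulfur protein, had 37.0, 38.3 and 16.6 CPM, a doxorubicin to control ratio of 1.04 (0.933 to 1.15). Cyc1, the cytochrome c1 subunit, had 81.5, 82.6 and 31.6 CPM and a ratio of 1.01 (0.945 to 1.09), and Uqcrc1, a core protein, 64.5, 66.1 and 35.7 CPM and 1.02 (0.946 to 1.11). For these 3 no difference beyond counting error was seen over all kept nuclei, and the highest upper bound was 1.15. Uqcrc2, the other core protein, differed from them at 1.21 (1.11 to 1.31). By class, Cyc1 was lower in CA1 neurons at 77.7 and 64.1 CPM (0.825-fold, 0.685 to 0.995), and Uqcrfs1 in oligodendrocyte precursor cells at 84.1 and 39.7 CPM (0.472-fold, 0.216 to 0.997, from 20 and 13 UMIs). In granule neurons Uqcrfs1 had 41.2 and 37.7 CPM (0.915-fold, 0.726 to 1.15) and in oligodendrocytes 60.5 and 60.3 (0.997-fold, 0.682 to 1.46). Cyc1 in CA1 neurons and Uqcrfs1 in oligodendrocyte precursor cells were the only 2 of the 417 pairs with an interval below 1. Their upper bounds, 0.995 and 0.997, lay close to 1. The share of all genes with an interval below 1 in these classes is not given here. Among 417 intervals some can lie below 1 by counting error alone, so these 2 pairs are not read as lower in doxorubicin.

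Cytochrome c, the soluble carrier between complexes III and IV that also starts the apoptosome when released, is encoded by Cycs. It had 50.1, 63.7 and 23.2 CPM over all kept nuclei, a doxorubicin to control ratio of 1.27 (1.17 to 1.39). By class the ratio was above 1 in 8 of 11, with a median of 1.12. The interval lay above 1 in granule neurons (1.45-fold, 1.19 to 1.76), CA1 neurons (1.31-fold, 1.04 to 1.66) and oligodendrocytes (1.68-fold, 1.19 to 2.40). In choroid plexus epithelium the ratio was 0.677 (0.308 to 1.49), from 15 UMIs in each library, which is not a difference beyond counting error.

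Complex IV was higher in doxorubicin in every class, from 1.17-fold in microglia to 1.63-fold in oligodendrocytes. Its nuclear-encoded subunits surround the catalytic core made by mitochondrial DNA and take part in its assembly and regulation. All 10, like the other 28 genes, had ratios above 1 over all kept nuclei. Cox6c, a small membrane subunit, had 168, 246 and 90.3 CPM over all kept nuclei, a doxorubicin to control ratio of 1.46 (1.40 to 1.53). It was the only one of the 38 genes with an interval above 1 in all 11 classes, from 1.28-fold (1.09 to 1.52) in GABAergic neurons to 2.22-fold (1.52 to 3.30) in fibroblast-like cells. Cox6c in control and doxorubicin was 185 and 257 CPM in granule neurons, 94.9 and 157 in CA2/CA3 neurons, 189 and 353 in oligodendrocytes, and 309 and 432 in astrocytes. Cox7b had 98.3, 141 and 70.5 CPM, a ratio of 1.44 (1.36 to 1.53), and was at least 25% higher in 11 of 11 classes. Cox4i1 had 249, 344 and 133 CPM and a ratio of 1.38 (1.33 to 1.43). In GABAergic neurons Cox4i1 had 199.7 CPM in control and 321 in doxorubicin (1.61-fold, 1.39 to 1.86), and in oligodendrocytes Cox6b1, which binds on the intermembrane side, had 89.2 and 196 CPM (2.20-fold, 1.69 to 2.87). Cox7a2 in oligodendrocyte precursor cells had 105 and 211 CPM (2.004-fold, 1.252 to 3.31, from 25 and 69 UMIs). The gene with the smallest difference was Cox7c, at 225, 261 and 118 CPM and a ratio of 1.16 (1.12 to 1.21), with 220 and 216 CPM in GABAergic neurons (0.981-fold, 0.840 to 1.14) and 347 and 303 CPM in fibroblast-like cells (0.873-fold, 0.604 to 1.26). Cox5a, Cox5b, Cox6a1, Cox6b1, Cox7a2 and Cox8a had ratios between 1.249 and 1.39 over all kept nuclei.

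In complex V, Atp5e of the central stalk and Atp5j of the peripheral stalk were highest in ratio, and the catalytic subunit was among the lowest. Atp5e had 42.4, 60.7 and 23.1 CPM over all kept nuclei, a doxorubicin to control ratio of 1.43 (1.31 to 1.57), and in granule neurons 40.1 CPM in control and 63.4 in doxorubicin (1.58-fold, 1.29 to 1.95). Atp5j, the coupling factor 6 of the peripheral stalk, had 91.04, 131 and 49.2 CPM and a ratio of 1.44 (1.35 to 1.53). It was at least 25% higher in all 11 classes, reaching 2.002-fold (1.56 to 2.58) in oligodendrocytes at 103 and 206 CPM. Atp5b, the beta subunit that forms ATP, had 259.96, 283 and 102 CPM and a ratio of 1.09 (1.05 to 1.13). In CA2/CA3 neurons Atp5b had 191 and 179 CPM (0.935-fold, 0.803 to 1.09). Atp5d, the delta subunit of the central stalk, had 91.6, 101 and 37.4 CPM and a ratio of 1.10 (1.03 to 1.18). Atp5a1, the alpha subunit, had a ratio of 1.19 (1.12 to 1.27). Atp5c1, the gamma subunit of the central stalk, had 1.32 (1.22 to 1.42).

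The 3 genes of the rotating c ring, Atp5g1, Atp5g2 and Atp5g3, encode the same mature protein from separate loci. Their doxorubicin to control ratios over all kept nuclei were 1.21 (1.15 to 1.27), 1.15 (1.07 to 1.23) and 1.22 (1.16 to 1.29). The intervals overlapped, so the 3 loci are not told apart by this ratio. Atp5g2 in astrocytes had 157 CPM in control and 138 in doxorubicin (0.876-fold, 0.693 to 1.11), and Atp5g1 in microglia had 117 and 187 CPM (1.60-fold, 1.15 to 2.25). Atp5o, the protein that ties the peripheral stalk to the head, had a ratio of 1.23 (1.16 to 1.32) and was highest in choroid plexus epithelium (2.59-fold, 1.35 to 5.38, from 12 and 46 UMIs). The remaining peripheral stalk and membrane genes Atp5h, Atp5j2, Atp5k and Atp5l had ratios from 1.28 to 1.35.

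Other transcripts were also higher in the doxorubicin library. Ttr had 1318 CPM over all kept nuclei in control, 2950 in doxorubicin and 831 in doxorubicin plus ACY-1083, and was between 1.72-fold and 2.56-fold higher in doxorubicin than in control in all 11 classes. Transcripts of mitochondrial DNA took 404, 509 and 140 CPM and were 1.05-fold to 1.91-fold higher in doxorubicin in 11 of 11 classes. Of the markers of other classes, 122 to 125 were measured in each class, and their summed level was 2218 to 12711 CPM in control and 3119 to 15333 CPM in doxorubicin, higher in doxorubicin in 11 of 11 classes. Without Ttr it was higher in 8 of 11, with ratios of 0.868 to 1.08. Of such markers with a mean of at least 10 CPM, those at least 25% higher and at least 20% lower in doxorubicin were 8 and 3 of 47 in granule neurons, 8 and 5 of 43 in CA1, 13 and 1 of 31 in CA2/CA3, 11 and 8 of 51 in subicular or cortical and 9 and 2 of 45 in GABAergic neurons. In oligodendrocytes they were 20 and 16 of 65, in oligodendrocyte precursor cells 14 and 31 of 76, in astrocytes 17 and 19 of 77, in microglia 21 and 18 of 71, in fibroblast-like cells 34 and 25 of 89 and in choroid plexus epithelium 30 and 32 of 80. The shares of all genes past these sizes are those given above for each class, 5.89% and 10.7% in granule neurons. No marker was at 0 in both libraries in granule neurons. At 0 in both were Bnc2 in CA1 neurons and Abcc9, Bnc2, Dock8, Inpp5d and Lhx5 in GABAergic neurons. Every remaining class also had markers at 0 in both. In control, 2 markers were at 0 in granule neurons and 33 in choroid plexus epithelium. The median log2 ratio of 84 cytosolic ribosomal protein genes was 0.25 over the 11 classes and above 0 in 11 of 11. The part of these differences in the higher level of the 38 genes was not tested. Counted against the UMIs of ribosomal protein genes in place of all UMIs, the median log2 ratio of the 38 genes was 0.08, and that of complex II was -0.05, below 0.

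The other gene groups of energy metabolism differed in how far they were higher with the 38 genes. These lists stand beside the same 2.92% background over all kept nuclei. At least 25% higher there were 23 of 36 nuclear-encoded complex I genes, 5 of 9 mitochondrially encoded subunits and 28 of 80 ribosomal protein genes with a mean of at least 10 CPM. The count was 1 of 28 for assembly factors and 0 for 12 genes of the tricarboxylic acid cycle, 15 of glycolysis and 10 transcriptional regulators, and 0 genes of these lists were at least 20% lower. The median log2 ratio over classes was 0.30 for 36 nuclear-encoded complex I genes and 0.37 for 13 mitochondrially encoded subunits, against a median of -0.04 for all genes tested, and they were above 0 in 11 and 10 of 11 classes. Ndufa7, a small complex I subunit, had a median log2 ratio of 0.61 and Ndufa10 -0.11. Among mitochondrially encoded subunits, mt-Co1, the catalytic subunit of complex IV, had 0.49 and mt-Nd5, of complex I, 0.12. Glycolysis lay between, with a median of 0.09 over 15 genes, above 0 in 9 of 11 classes. The median was -0.02 for 13 genes of the tricarboxylic acid cycle (above 0 in 3 classes), -0.01 for 32 assembly factors of complexes II to V (5 classes) and -0.03 for 13 transcriptional regulators of respiratory genes (4 classes). Fh1, fumarase, which acts on the product of complex II, had 0.21, and Dlst, a subunit of the oxoglutarate dehydrogenase complex, -0.23. The glycolytic genes Aldoc and Pfkl had 0.39 and -0.26. Cox10, which makes the heme of complex IV, had -0.26, and Sdhaf4, which assists the assembly of Sdha, 0.45. Gabpa, the DNA-binding subunit of nuclear respiratory factor 2, had 0.20 and was above 1 in 6 of 11 classes, and the coactivator Ppargc1b had -0.39, above 1 in 1 of 10. A further 11 genes, isoforms and regulators of these complexes, had a median of 0.33, from Higd2a at -0.01 to Ndufa4, a complex IV subunit, at 0.61. Among ribosomal protein genes, Rpl23 had 0.57 and Rpl29 -0.03.

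The genes with the higher doxorubicin to control ratio tended to have the shorter transcripts. Over the 38 genes the Spearman correlation of the length of the median protein-coding transcript with the median log2 ratio was -0.43, given as a description over genes that share libraries. This length is a median over all annotated protein-coding transcripts and need not be that of the main transcript. Uqcrc1, for example, was taken as 533 bases, although its merged exons cover 4135. The 28 genes with transcripts of 1000 bases or fewer had a median log2 ratio of 0.38 and the 10 longer ones 0.23. Over all kept nuclei the median log2 ratio was 0.01 for 1700 genes of up to 1000 bases and 0.40 for the 28 respiratory genes among them. The genes were not matched for level, and the part of transcript length in the ratios was not tested. Near-identical annotated copies of the 3′ end (at least 91 bases at 95% identity or more) existed for 18 of the 38 genes. Most are annotated as pseudogenes and some are genes whose annotated transcripts overlap the member, such as Gabpa for Atp5j. Matches on either strand were counted, so the 18 include genes, such as Atp5j, with an overlapping neighbour and no pseudogene copy. There were 4 for Cox7c, 3 for Uqcrb, 2 for Cox6c and 11 for Atp5l. Counts of these genes are uncertain to the extent that reads could be split, and the median log2 ratio was 0.34 for these 18 and 0.29 for the other 20.

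Promoters of 30 of the 38 genes, from 250 bases before to 50 after the RefSeq start (GRCm38.p6), were searched on both strands for 4 motifs of factors known to act on respiratory genes. The motifs were TGCGCANGC for Nrf1, CCGGAAG for ETS factors such as Gabpa, AANATGGCG for YY1 and GGGCGG for Sp1. A gene was counted if the window of any of its annotated starts held a match. The ETS motif was found for 12 of 30 genes (40%) against 12.9% of 17492 protein-coding genes, and the Nrf1 motif for 6 (20%) against 6.24%. The YY1 motif was found for 3 (10%) against 3.64% and the Sp1 motif for 10 (33.3%) against 49.2%. Among the 30, the median log2 ratio of doxorubicin to control was 0.42 for the 12 with the ETS motif and 0.26 for the 18 without. It was 0.30 for the 6 with the Nrf1 motif and 0.31 for the 24 without, 0.39 for the 10 with the Sp1 motif and 0.29 for the 20 without, and 0.32 for the 3 with the YY1 motif and 0.29 for the 27 without. A match describes the letters only. In the 30 windows closest to the annotated start, a pair of motif matches overlapped in 1, that of Uqcrc1. The 250 bases before the start are shown for 4 genes with matches, 1 from each complex and chosen after their values were seen, 5′ to 3′ on the gene's strand with matches in capitals.
Sdhd (chr9:50603850-50604099, minus strand): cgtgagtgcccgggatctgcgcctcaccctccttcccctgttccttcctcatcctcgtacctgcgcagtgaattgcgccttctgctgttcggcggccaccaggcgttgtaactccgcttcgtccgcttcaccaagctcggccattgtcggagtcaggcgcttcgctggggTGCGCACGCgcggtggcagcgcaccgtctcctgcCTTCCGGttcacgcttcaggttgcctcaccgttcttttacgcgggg
Uqcr11 (chr10:80406822-80407071, minus strand): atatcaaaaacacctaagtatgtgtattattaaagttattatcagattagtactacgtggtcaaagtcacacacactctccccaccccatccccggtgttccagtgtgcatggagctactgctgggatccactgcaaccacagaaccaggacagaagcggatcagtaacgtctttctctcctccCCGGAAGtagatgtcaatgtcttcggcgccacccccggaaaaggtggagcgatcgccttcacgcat
Cox6a1 (chr5:115348959-115349208, minus strand): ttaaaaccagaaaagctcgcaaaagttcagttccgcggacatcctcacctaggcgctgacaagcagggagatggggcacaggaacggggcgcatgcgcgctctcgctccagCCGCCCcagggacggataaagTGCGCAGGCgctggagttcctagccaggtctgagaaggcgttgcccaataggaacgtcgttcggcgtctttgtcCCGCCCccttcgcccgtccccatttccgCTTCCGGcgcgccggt
Atp5e (chr2:174464102-174464351, minus strand): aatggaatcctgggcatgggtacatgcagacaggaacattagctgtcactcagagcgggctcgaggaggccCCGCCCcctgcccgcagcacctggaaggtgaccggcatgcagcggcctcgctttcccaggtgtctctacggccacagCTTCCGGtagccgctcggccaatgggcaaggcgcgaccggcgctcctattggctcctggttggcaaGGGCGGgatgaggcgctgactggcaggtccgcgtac
Within the bases shown, Sdhd holds an Nrf1 and an ETS match (its Sp1 match does not lie wholly within them), Uqcr11 an ETS match, Cox6a1 matches for Nrf1, Sp1 and ETS, and Atp5e matches for Sp1 and ETS. Their median log2 ratios over classes were 0.54, 0.56, 0.41 and 0.55.

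The library with ACY-1083 was lower than the doxorubicin library for all complexes when measured in CPM, and this comparison shares the doxorubicin library with the previous one. The median log2 ratio over 11 classes was -0.49 for complex II, -1.08 for complex III, -1.24 for cytochrome c, -1.15 for complex IV and -1.17 for complex V. Of the 38 genes, 36 were at least 20% lower than in doxorubicin over all kept nuclei, where 49.2% of all genes tested lay. In UMIs per nucleus the library was not lower: nuclei held on average 6.42, 8.14 and 10.2 UMIs of the 38 genes in control, doxorubicin and doxorubicin plus ACY-1083, at the deeper coverage of the last.

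The ratio to doxorubicin followed intron length in all genes. Genes with under 1000 bases of intron had a median log2 ratio of -1.47 and genes with over 100000 bases 1.37, and the Spearman correlation over 10602 genes was 0.75. Over the 38 genes it was 0.62. Introns were under 10 kb in 33 of the 38, among them 1 of 4 in complex II and 10 of 10 in complex IV. The 5 genes with longer introns (Sdha, Sdhb, Sdhc, Uqcrc2 and Atp5c1) had a median log2 ratio of -0.38, beside -0.54 for all 2890 genes of 10000 to 30000 intron bases. Sdhc, with 20189 intron bases, had a ratio of 1.01 (0.910 to 1.13), and Atp5c1, the gamma subunit, with 22587, had 62.9, 82.9 and 73.2 CPM and 0.884 (0.835 to 0.935). Uqcr11, with 3193 intron bases, had 0.345 (0.323 to 0.369) and Cox5b, with 646, had 0.340 (0.321 to 0.361). The doxorubicin to control ratio did not follow introns in this way, with a Spearman correlation of -0.14 over the 38 genes and -0.14 over all genes. The matrix headers name Cell Ranger 4.0.0 for control and doxorubicin and 5.0.0 for doxorubicin plus ACY-1083. Treatment and the processing of this library cannot be told apart.

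**Figure D4:**
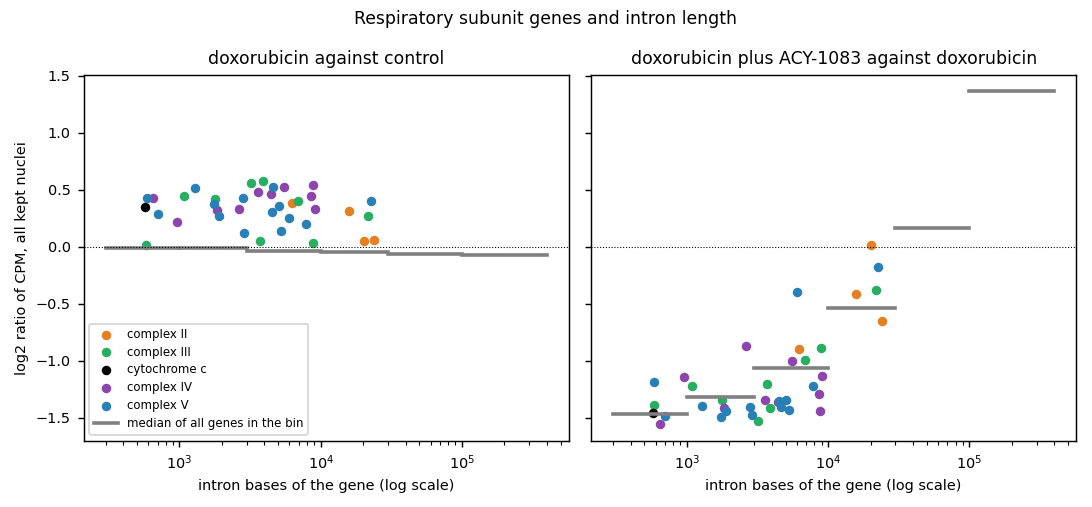
Log2 ratio of CPM over all kept nuclei (vertical axes) against intron bases per gene on a log axis, for doxorubicin against control (left) and doxorubicin plus ACY-1083 against doxorubicin (right); points are the 38 genes coloured by complex and grey bars the median of all genes in each intron bin. The grey bars run from -1.47 to 1.37 on the right and lie near 0 on the left, where the 38 points have a median of 0.35.

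Counted against other short-intron genes, the library with ACY-1083 lay between the other two. UMIs of the 33 genes with under 10 kb of intron were divided by the UMIs of all other genes with under 10 kb of intron, Malat1 left out, and scaled as CPM. Over all kept nuclei this gave 16220 in control, 20379 in doxorubicin and 18042 in doxorubicin plus ACY-1083. The ACY-1083 library was thus 0.885 of doxorubicin (0.877 to 0.893) and 1.11 times control (1.10 to 1.12). It lay between the other two in granule, CA1, CA2/CA3, subicular or cortical and GABAergic neurons and in every other class except microglia, which had 14256, 17745 and 19194. The subicular or cortical class may hold different neurons in the ACY-1083 library, as given above. Oligodendrocytes had 19467, 27482 and 25824, and astrocytes 23810, 27341 and 25632. The ratio to doxorubicin had a median of 0.915 over the 11 classes, with an interval below 1 in 10 and above 1 in microglia. By complex the median ratio to doxorubicin was 0.921 for complex III, 0.916 for complex IV and 0.890 for complex V, and 1.19 for complex II, which rests on Sdhd alone. On this scale the doxorubicin to control ratio was 1.23 as a median over classes, with intervals above 1 in 11 of 11.

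**Figure D5:**
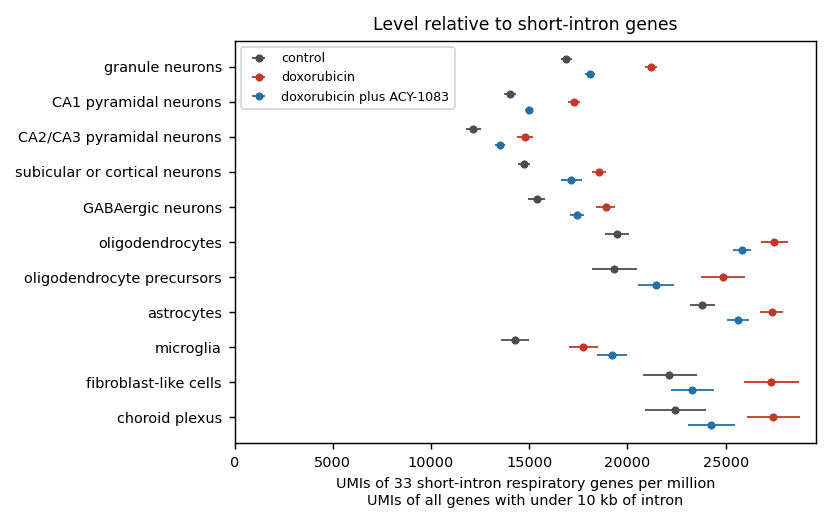
UMIs of the 33 respiratory genes with under 10 kb of intron scaled as CPM to the UMIs of other genes with under 10 kb of intron (horizontal axis) in 11 cell classes and 3 libraries; bars are exact 95% Poisson intervals of the counts. The doxorubicin points lie above control in every class and above doxorubicin plus ACY-1083 in all classes except microglia.

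The short-intron scaling does not remove every difference between the libraries. Relative to ribosomal protein genes the ACY-1083 to doxorubicin median log2 ratio of the 38 genes was 0.22, against -1.12 in CPM and -0.05 relative to short-intron genes. The sign of this comparison therefore depends on the genes used for scaling, whereas doxorubicin stayed above control in complexes III, IV and V under the 3 scalings.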

How the data were processed

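Raw UMI counts per gene and barcode were deposited by the authors as 10x matrices with no normalization. Per the submitters' processing notes they used Cell Ranger 6.0.0 and mm10, while the file headers name Cell Ranger 4.0.0 (control and doxorubicin) and 5.0.0 (doxorubicin plus ACY-1083). Per the labels' protocols, libraries were made with the 10x 3' v3 kit. The sources used here do not say whether intronic reads entered the counts.

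Nuclei with at least 300 genes, under 5% mitochondrial UMIs and a Scrublet score of at most 0.25 were kept. That score was set after the automatic threshold marked almost no barcodes, and it left out 452, 573 and 344. Libraries were clustered jointly in scanpy 1.11.5 (2000 variable genes without the respiratory and ribosomal genes, 50 principal components, 15 neighbours, Leiden resolution 1), with settings chosen for marker separation, and clusters were named from marker lists. Counts were summed per class and library and scaled to CPM, and log2 ratios had 0.5 counts added. Intervals are exact Poisson (levels) or Clopper-Pearson conditional on the sum (ratios), tested on simulated data. Genes needed a mean of 10 CPM. Genes were named by rule: per complex the 2 highest and the lowest median ratio and the largest spread over control classes, per class the extreme interval bounds, the 2 extremes each way of the ACY-1083 comparison, the extremes of each other list, and always the complex II genes, Cyc1, Cycs and Atp5g1 to Atp5g3. Others were added for their role after their values were seen.

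GENCODE vM21 (GRCm38) matched 32235 of 32285 genes by ID, and its annotation may differ from the authors'. Copies were found with BLAST+ 2.17.0 and TMM factors came from edgeR 4.0.16. The 38 genes, gene lists and comparisons were chosen with earlier results of these data known.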

Additional observations from a re-analysis of the deposited data

Results flagged for a closer look

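A cluster that no marker list named, led by mitochondrially encoded genes with Fau and Gapdh among them, held 161, 426 and 247 nuclei of control, doxorubicin and doxorubicin plus ACY-1083 (1.54%, 3.66% and 2.09%) and entered no comparison of classes. Its summed level of the 38 genes, 10451 CPM in control, 8933 in doxorubicin and 8410 in doxorubicin plus ACY-1083, was 2.89, 1.957 and 4.19 times that of the other nuclei of its library. Complex IV was 3.09, 2.03 and 4.60 times higher there and complex II 1.57, 1.57 and 2.35 times. The cluster also had 3995, 1785 and 1509 CPM of mitochondrially encoded transcripts, against 359, 475 and 134 in other nuclei, and less Malat1 (14.3%, 19.0% and 4.91%). It held 3.48%, 4.89% and 1.69% of all UMIs of the 38 genes.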

How the results depend on the processing

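Each comparison was recomputed with doublets kept, a stricter gene filter, other clusterings, thinned nuclei, other totals and scalings, and member medians, and, chosen after seeing the data, with scaling to ribosomal protein genes. Doxorubicin against control kept its direction in 10 of 10 alternatives for complexes III, IV, V and all 38 genes and 9 of 10 for complex II. Scaling to ribosomal genes, whose own shift of all genes was -0.26, gave 0.089, 0.13, 0.055 and 0.078 for complexes III, IV, V and all 38 genes. The count of 219 pairs ran from 155 to 241. ACY-1083 against doxorubicin changed most. For complexes II, III, IV, V and all 38 genes, TMM factors gave -0.10, -0.74, -0.87, -0.84 and -0.81, short-intron scaling 0.62, -0.0089, -0.13, -0.064 and -0.046, and ribosomal scaling 0.90, 0.28, 0.18, 0.15 and 0.22, where all genes shifted by 0.09, 0.80 and 1.13. Totals without Malat1 gave -1.32, -1.49, -1.43 and -1.41 for III, IV, V and all. Thinning to 1000 UMIs gave -0.93 for IV and -0.96 for all, and member medians -1.31 for V and -1.22 for all. The mean of the neuron classes stayed below that of the other classes in these alternatives. In control, Leiden resolution 0.5, separate clustering, thinning, doublets kept, 600 genes and no Malat1 gave -0.49, -0.52, -0.65, -0.64, -0.54 and -0.65. In doxorubicin they gave -0.56, -0.59, -0.68, -0.71, -0.58 and -0.72. With ACY-1083, separate clustering, thinning, doublets kept and 600 genes gave -1.04, -1.09, -0.90 and -1.04. Beyond the settings' own construction the cause was not tested. No paired analysis was possible because each group had 1 library. Ratios in classes of few nuclei are limited by counts.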
